A study of Mus musculus with 2 samples.

Results

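Histone genes were examined in gastrocnemius, a hindlimb muscle, from 2 adult males of the strain B6CASTF1/J, aged 8 to 10 months. This strain is an F1 cross between C57BL/6J and CAST/EiJ mice. No treatment is named, and each animal gave 1 total RNA library made from 300 ng of RNA. Replicate 1 is labelled animal 2 and replicate 2 is labelled animal 4, under 1 shared donor identifier. The members were the genes whose symbol begins with Hist1h, Hist2h, Hist3h or Hist4h, plus H1f0, H2afx, H2afy, H2afz, H2afv, H3f3a and H3f3b, that have at least 1 protein-coding transcript. The rule met 77 symbols, of which 74 genes qualified out of 55536 annotated genes. Of these, 67 were replication-dependent genes and 7 were variant genes, and 3 symbols were left out because none of their transcripts is annotated as protein-coding. The design holds 1 group, so the results are the levels of these genes in muscle and the difference between its 2 animals.

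Histones package DNA. A pair each of H2A, H2B, H3 and H4 forms the core that DNA wraps around, and H1 binds the linker between cores. Replication-dependent histone genes lie in clusters, have no or few introns and are transcribed mainly in S phase, and their mRNAs end in a conserved stem-loop in place of a poly(A) tail. The stem-loop binding protein Slbp holds that structure during 3' end processing, translation and decay. Most variant histone genes have introns or stand alone, are polyadenylated and are made throughout the cell cycle. They therefore supply histones to cells that no longer divide, such as the nuclei of muscle fibres. Some clustered genes are also known to give polyadenylated transcripts in differentiated cells.

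The stem-loops are shown because most replication-dependent models carry one. In the GENCODE M21 transcripts on mm10, the histone stem-loop consensus occurred in 59 of 55450 genes. It was found in 46 of the 67 replication-dependent genes (68.7%), in 1 variant gene, H2afx, and in 12 other genes (0.0217% of the rest). It began between 24 and 61 bases after the last amino acid codon, with a median of 34 bases over 47 genes. These distances include the stop codon. Of the 21 replication-dependent genes without a match, 11 have models of coding sequence and stop codon only, and some others end at or just past the stop codon. Such models cannot show a loop, so the share of genes with a match describes the annotation. The capitals in the sequences below mark the 16-base stem and loop, read 5' to 3' on the gene's strand, with the annotated flanks in lower case.
Hist1h1c, chr13:23739507-23739532, plus strand: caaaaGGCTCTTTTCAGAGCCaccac
Hist2h2aa2, chr3:96239779-96239804, minus strand: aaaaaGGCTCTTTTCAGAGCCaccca
Hist1h4h, chr13:23531453-23531478, plus strand: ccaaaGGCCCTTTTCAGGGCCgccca
Hist1h4i, chr13:22040961-22040986, minus strand: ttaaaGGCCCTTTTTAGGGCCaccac
Hist2h2ac, chr3:96220413-96220438, minus strand: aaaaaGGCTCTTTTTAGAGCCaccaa
H2afx, chr9:44335235-44335260, plus strand: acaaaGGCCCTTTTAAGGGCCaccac
The form of Hist1h1c and Hist2h2aa2 was shared by 26 genes of the H1, H2A, H2B and H3 families. The form of Hist1h4h was carried by 7 genes, all encoding H4, and that of Hist1h4i by 2 H4 genes.

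Promoters are shown for 2 pairs of genes whose levels are compared below. The sequences run from 250 bases before to 50 bases after the start in RefSeq on GRCm38.p6, which can differ from the GENCODE start, and 67 members matched an entry. Capitals mark matches to TATAAA on the gene's strand and to CCAAT, the octamer ATTTGCAT and the H1 AC box AAACACA on either strand, so that ATTGG, ATGCAAAT and TGTGTTT are the same boxes on the other strand. A CCAAT match can share bases with an octamer match.
Hist1h1c, chr13:23738557-23738856, plus strand: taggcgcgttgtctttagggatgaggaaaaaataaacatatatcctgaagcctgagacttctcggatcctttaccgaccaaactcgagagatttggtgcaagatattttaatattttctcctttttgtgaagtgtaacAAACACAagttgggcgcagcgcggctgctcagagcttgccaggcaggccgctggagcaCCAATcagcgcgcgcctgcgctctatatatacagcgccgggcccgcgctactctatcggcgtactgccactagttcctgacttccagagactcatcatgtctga
H1f0, chr15:79027962-79028261, plus strand: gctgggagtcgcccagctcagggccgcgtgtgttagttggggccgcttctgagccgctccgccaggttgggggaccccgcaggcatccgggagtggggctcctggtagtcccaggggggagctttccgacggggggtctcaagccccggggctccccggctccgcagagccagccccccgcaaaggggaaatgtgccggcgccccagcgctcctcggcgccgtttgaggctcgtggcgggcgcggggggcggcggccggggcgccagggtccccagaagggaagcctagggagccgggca
H3f3a, chr1:180813556-180813855, minus strand: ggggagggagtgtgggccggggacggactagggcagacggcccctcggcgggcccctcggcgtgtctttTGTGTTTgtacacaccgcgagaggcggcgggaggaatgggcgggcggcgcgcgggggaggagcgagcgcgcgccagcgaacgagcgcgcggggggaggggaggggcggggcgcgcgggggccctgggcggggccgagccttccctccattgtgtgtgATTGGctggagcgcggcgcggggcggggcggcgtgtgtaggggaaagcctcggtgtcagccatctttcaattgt
H3f3b, chr11:116024455-116024754, minus strand: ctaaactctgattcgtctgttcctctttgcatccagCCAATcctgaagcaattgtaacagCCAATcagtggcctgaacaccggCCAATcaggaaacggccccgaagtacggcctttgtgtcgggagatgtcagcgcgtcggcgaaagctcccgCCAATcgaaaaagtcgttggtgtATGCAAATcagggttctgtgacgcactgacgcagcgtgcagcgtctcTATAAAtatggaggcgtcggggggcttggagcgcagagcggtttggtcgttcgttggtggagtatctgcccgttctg
Within these windows the H1 genes Hist1h1c and H1f0 differ, since Hist1h1c holds a CCAAT box and an AC box and H1f0 holds none of the 4 motifs. The H3.3 genes differ as well. H3f3b holds a TATA box, CCAAT boxes and an octamer, and H3f3a holds a CCAAT box and an AC box. Only the Hist1h1c window covers the outermost GENCODE start of its gene. The H1f0 window ends before that start, and the H3f3a and H3f3b windows lie inside the gene, past it. Each pair is thus compared at unlike positions, and letters next to the other GENCODE starts were not searched. CCAAT was found in 52 of 61 replication-dependent promoters (85.2%), against 37.8% of 26958 other promoters, and in every H1, H2A, H2B and H3 promoter of that class but only 3 of 12 H4 promoters. TATAAA was found in 30 of the 61 (49.2%), against 8.79% of the others. The octamer was found in 13 of the 61 (21.3%), against 1.71% of the others, and these 13 were 7 H2A and 6 H2B genes. AAACACA was found in 5 of 6 replication-dependent H1 promoters, against 7.12% of the others. Median GC content was 45.3% for replication-dependent promoters and 72.7% for the 6 variant promoters, against 52.7% for all others. These matches describe letters and not bound sites.

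Counts over all genes came to 36792619 for replicate 1 and 37752252 for replicate 2. A count of 0 allows up to 3 counts, or 0.0815 CPM in replicate 1 and 0.0795 CPM in replicate 2, where CPM scales counts to the library's total and the limit covers counting error only. Markers of skeletal fibres led the tissue lists, with 63128 and 66380 summed TPM (a level scaled by transcript length and library) for 5 of 5 genes. Values after ± are SDs over 2 animals.

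The 74 members summed to 692 TPM in replicate 1 and 778 TPM in replicate 2. That was 0.145% and 0.162% of the TPM of all genes with a protein-coding transcript. In both animals 37 of the 74 members reached 1 TPM, 9 more did so in 1 animal only, and 8 had no count in either. Of all 21901 genes with a protein-coding transcript, 9817 reached 1 TPM in both animals. Replication-dependent genes made up 61.9% of histone TPM in replicate 1 and 64.7% in replicate 2, with a mean of 63.3 ± 1.97% (SD, n = 2). The share was 55.0 ± 1.75% by counts, because many of these mRNAs are short and TPM divides by length. The 5 highest members, H3f3a, Hist1h1c, Hist2h2aa2, Hist1h4h and H1f0, held 51.8 ± 0.34% of histone TPM.

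**Figure D1:**
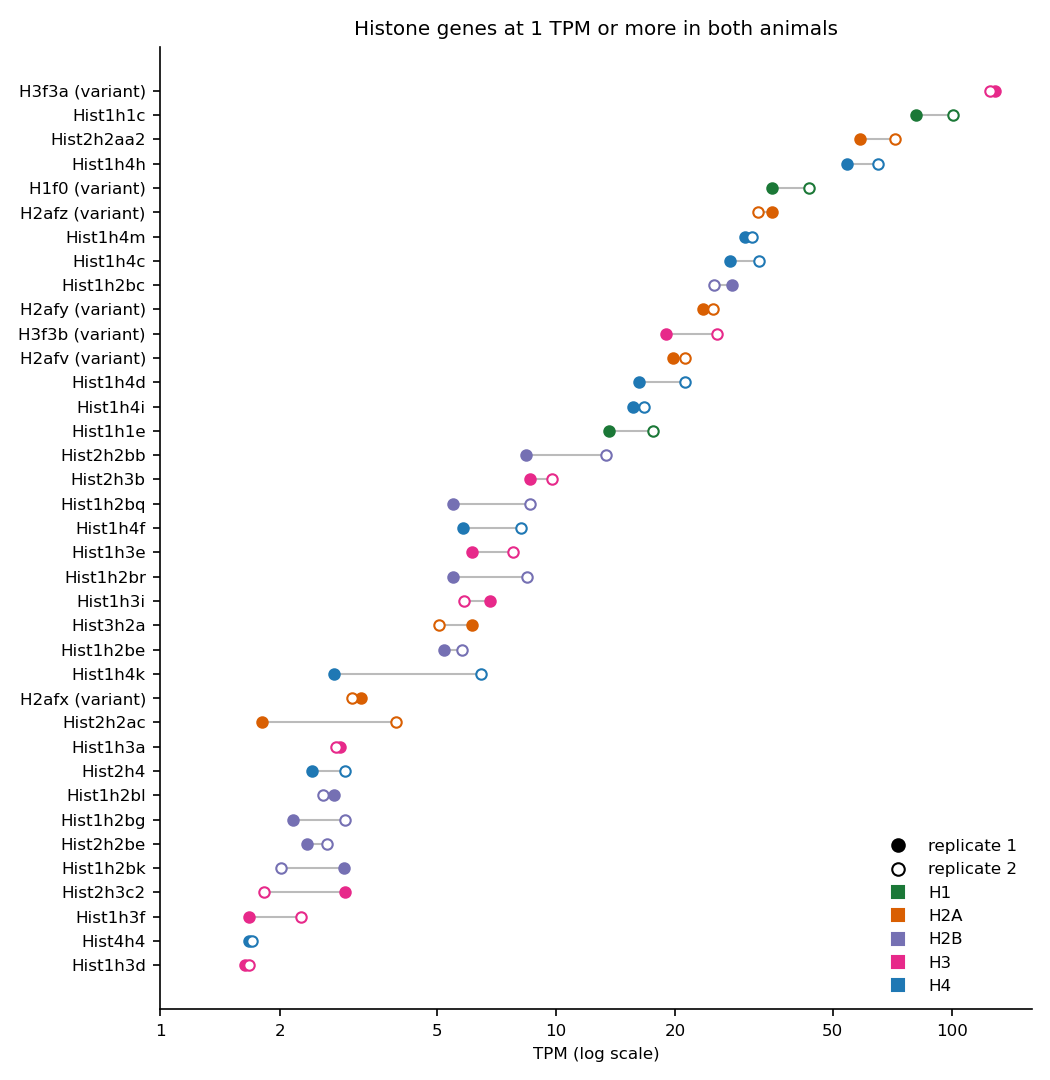
TPM of the 37 histone genes that reached 1 TPM in both animals, on a log axis, with replicate 1 as filled and replicate 2 as open circles, coloured by histone family. H3f3a was highest at 128 and 124 TPM, and most genes with a wide gap lie below 15 TPM.

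Linker histones were led by Hist1h1c (H1.2, current symbol H1f2; ENSMUSG00000036181.2, chromosome 13, 23738808 to 23740367, plus strand, 1 exon). Hist1h1c held 81.3 TPM in replicate 1 and 101 TPM in replicate 2. The variant H1f0 (ENSMUSG00000096210.2, chromosome 15, 79028450 to 79030504), which encodes the linker histone H1.0 typical of cells that have left the cell cycle, held 35.0 and 43.6 TPM. Hist1h1e (H1.4) held 13.6 and 17.5 TPM. The other clustered linker genes were low. Hist1h1d had 0.36 and 0.53 TPM, Hist1h1a 0.25 and 0.16 TPM, and Hist1h1b 0.49 and 0.16 TPM. The testis-specific gene Hist1h1t had no count. Hist1h1c made up 62.0 ± 0.10% of linker histone TPM, H1f0 26.8 ± 0.02% and Hist1h1e 10.6 ± 0.30%. By expected counts these shares averaged 55.0%, 31.8% and 11.8%. The TPM composition differed by under 1 percentage point between the animals, while Hist1h1c, H1f0 and Hist1h1e were each lower in replicate 1.

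Among core histones, H3 was the family with the largest share from variants. The H3.3 genes H3f3a (ENSMUSG00000060743.12, chromosome 1, 180800832 to 180813943) and H3f3b (ENSMUSG00000016559.14, chromosome 11, 116021912 to 116027962) encode the same 136-residue protein, counted with its first methionine. H3.3 is the H3 form deposited outside replication by Hira and by Daxx with Atrx. H3f3a held 128 and 124 TPM, and H3f3b held 18.9 and 25.5 TPM. Together they were 81.8 ± 0.52% of H3 TPM. Translated from the annotated transcripts, H3.3 differed by 4 residues from the protein of Hist2h3c2, an H3.2 gene, and by 5 from that of Hist1h3a, an H3.1 gene. The 7 H3 genes that encode the Hist2h3c2 protein summed to 20.98 and 25.08 TPM, and the 4 that encode the Hist1h3a protein to 10.9 and 9.05 TPM.

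Variant genes supplied 50.5 ± 3.47% of H2A TPM. That share depends on the method, at 68.8% on average by expected counts. In the second deposited quantification it was 51.6% of H2A TPM in replicate 1 and 43.1% in replicate 2. H2afz and H2afv encode H2A.Z proteins that differ by 3 of 128 residues and that mark promoters. H2afz (ENSMUSG00000037894.13, chromosome 3, 137864487 to 137866922) held 35.2 and 32.3 TPM, and H2afv (ENSMUSG00000041126.16, chromosome 11, 6427229 to 6444443) held 19.8 and 21.1 TPM. H2afy (ENSMUSG00000015937.15, chromosome 13, 56073619 to 56136361), which encodes the large variant macroH2A1, held 23.5 and 24.9 TPM. H2afx (ENSMUSG00000049932.3, chromosome 9, 44334694 to 44336077), whose product is phosphorylated at DNA breaks, was the lowest variant at 3.21 and 3.05 TPM. The largest replication-dependent H2A gene was Hist2h2aa2 (ENSMUSG00000063954.7, chromosome 3, 96239749 to 96240276), with 58.4 and 71.8 TPM. Every 31-base word of Hist2h2aa2 also occurs in another gene. Its neighbour Hist2h2aa1 encodes the same protein, and the 2 genes together held 58.4 TPM in replicate 1 and 74.7 TPM in replicate 2.

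H2B had no variant in the rule and was the smallest family, with 66.6 and 74.6 TPM. Hist1h2bc (ENSMUSG00000018102.5, chromosome 13, 23684199 to 23692908) held 27.8 and 25.1 TPM, which was 37.6 ± 5.72% of H2B. Its annotated transcript has 2 exons and contains no stem-loop. The 3 genes that encode its protein, Hist1h2bc, Hist1h2bg and Hist1h2be, summed to 35.2 and 33.8 TPM. Hist2h2bb followed with 8.38 and 13.4 TPM, and Hist1h2bq with 5.49 and 8.59 TPM.

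All 13 H4 genes encode 1 protein and summed to 162 TPM in replicate 1 and 188 TPM in replicate 2. Hist1h4h (ENSMUSG00000060981.7, chromosome 13, 23531050 to 23531519) held 54.4 and 65.1 TPM, or 34.1 ± 0.70% of H4. That share depends on the method. In the second deposited quantification it was 52.1% and 50.4% of H4 TPM, and by expected counts it averaged 23.1%. Hist1h4m had 30.0 and 31.3 TPM, Hist1h4c 27.5 and 32.6 TPM, Hist1h4d 16.2 and 21.1 TPM, and Hist1h4i 15.6 and 16.7 TPM. These 5 genes held 144 and 167 TPM of the H4 sums. Of the others, Hist1h4f, Hist1h4k, Hist2h4 and Hist4h4 lay between 1.67 and 8.15 TPM in both animals, and Hist1h4j had no count.

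**Figure D2:**
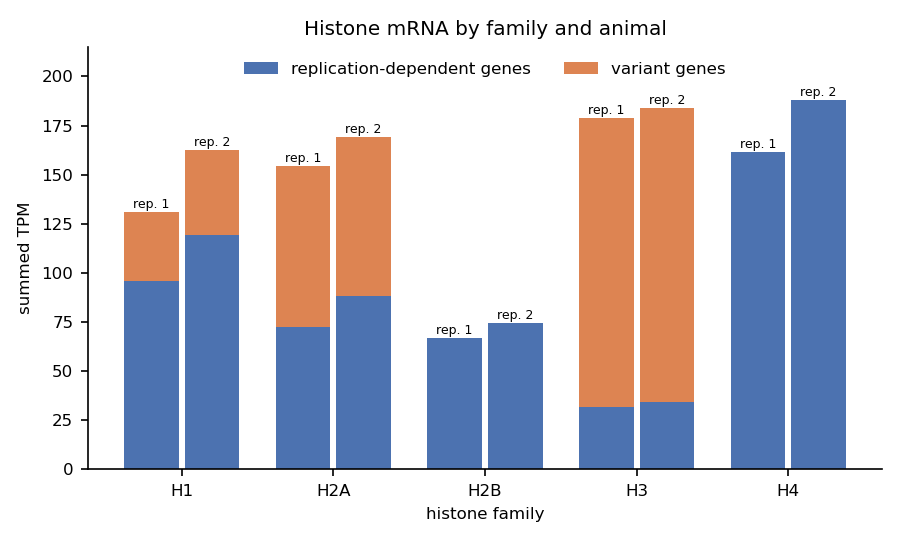
Summed TPM of replication-dependent genes (blue) and variant genes (orange) in each histone family, as stacked bars for replicate 1 (left) and replicate 2 (right). Variants averaged 81.8% of H3, 50.5% of H2A and 26.8% of H1, and the rule holds none for H2B or H4. By expected counts these averages were 87.8%, 68.8% and 31.8%.

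The 8 members without a count in either library were Hist1h1t, Hist1h2aa, Hist1h2ba, Hist1h2ad, Hist1h2ag, Hist1h2bm, Hist1h4j and Hist2h3c1, and they were singled out after their values were seen. Of these, Hist1h1t, Hist1h2aa and Hist1h2ba are known as testis genes. The second quantification also gave all 8 no count. For Hist2h3c1 that count carries little information, since each of its words also lies in the overlapping same-strand gene Gm20634, which had 251 and 230 counts.

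Markers of cycling cells were close to the limit of detection. The markers Mki67, Top2a, Ccna2 and Cdk1 summed to 0.34 and 0.49 TPM, with 10 and 1 counts for Mki67, 10 and 2 for Top2a, 1 and 2 for Ccna2, and 0 and 4 for Cdk1. None of the 4 reached a mean of 10 counts. Of 26 genes of the cell cycle and DNA replication list, 12 could be tested and 8 reached 1 TPM in both animals. Its most abundant members were Pcna, the replication clamp, with 8.99 and 8.21 TPM, and Rrm1, a subunit of ribonucleotide reductase, with 7.0 and 7.34 TPM. The summed replication-dependent TPM of 429 and 504 thus stood beside 32.0 and 31.9 TPM for all 26 of these genes. In bulk RNA fewer cells of a type and less RNA per cell cannot be told apart.

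How far the annotated models reach past the stem-loop was examined because cleavage after the loop ends a canonical histone mRNA. In 23 replication-dependent genes the model ended within 100 bases of the loop, in 23 it ran on past that point, and in 21 it held no loop. The 23 models that run on held 68.9% of replication-dependent counts on average and 44.0% of TPM. Hist1h1c runs on for 840 bases after its loop, Hist1h1e for 1153, Hist1h4d for 770 and Hist1h4c for 454. The 23 models that end near the loop held 18.0% of counts and 38.8% of TPM, and Hist2h2aa2 and Hist1h4h were the most abundant among them. The 21 without a loop held 13.1% of counts and 17.2% of TPM. Of these, 11 models consist of coding sequence and stop codon only, among them Hist2h2bb, Hist1h3i and Hist1h4k. The tables give 1 value per gene model and no coverage along it, so whether reads lay before or after the loop was not measured.

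Splice forms could be read for the variants. For H2afy the transcript H2afy-202, which encodes 369 residues, took 71.9% of the gene's TPM in replicate 1 and 65.8% in replicate 2. H2afy-201, which encodes 372 residues, took 1.48% and 0.77%. The second quantification gave 57.7% and 57.2% for H2afy-202 and 12.8% and 5.61% for H2afy-201. The order of these protein-coding forms was the same in all 4 values, with sizes that differed between the methods. A processed transcript, H2afy-204, took 23.3% and 30.7%.
For H3f3a, H3f3a-201 took 52.1% and 55.3% and H3f3a-207 took 40.8% and 38.2%, while the second quantification placed H3f3a-207 first with 55.6% and 53.8%. H3f3a-201 is annotated with 135 residues and H3f3a-207 with 136. For H3f3b, H3f3b-202 was listed at 0 in both animals by the first quantification and took 38.9% and 41.3% in the second. A processed transcript, H3f3b-204, took 42.8% and 48.1%, and 32.5% and 36.4% in the second quantification. The TPM given for H3f3b includes this transcript, which has no annotated coding sequence. The leading transcript of H3f3a and H3f3b therefore depends on the method. H2afz-201 took 90.2% and 94.3% of H2afz, and 77.8% and 99.2% in the second quantification.

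The 2 animals were then compared, as replicate 1 over replicate 2. With 1 library a side there is no replicate check, so an exact two-sided conditional binomial test on the counts says only whether these libraries differ beyond counting noise. Of the 74 members, 45 averaged at least 10 counts and were tested, 38 of them replication-dependent. A first call was a ratio of 1.5-fold or more after scaling by TMM, the trimmed mean of log ratios. It took 3 members higher in replicate 1, against 5.38% of all 14095 tested genes, and 9 members lower in replicate 1, against 6.76% of all tested genes. As shares of the 45 members these were 6.67% and 20%. All 12 were replication-dependent.
A second call was the binomial test, with Benjamini-Hochberg adjustment at 0.05 over all tested genes. It took 1 member as higher in replicate 1 (2.22% of members, against 10.8% of all tested genes) and 17 as lower in replicate 1 (37.8%, against 10.7%). Spike-in scaling changed this split to 7 higher and 11 lower in replicate 1, and scaling by total counts gave 1 higher and 22 lower. With an assumed biological coefficient of variation of 0.1, edgeR's exact test took 4 members, each with no count in 1 library.

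**Figure D3:**
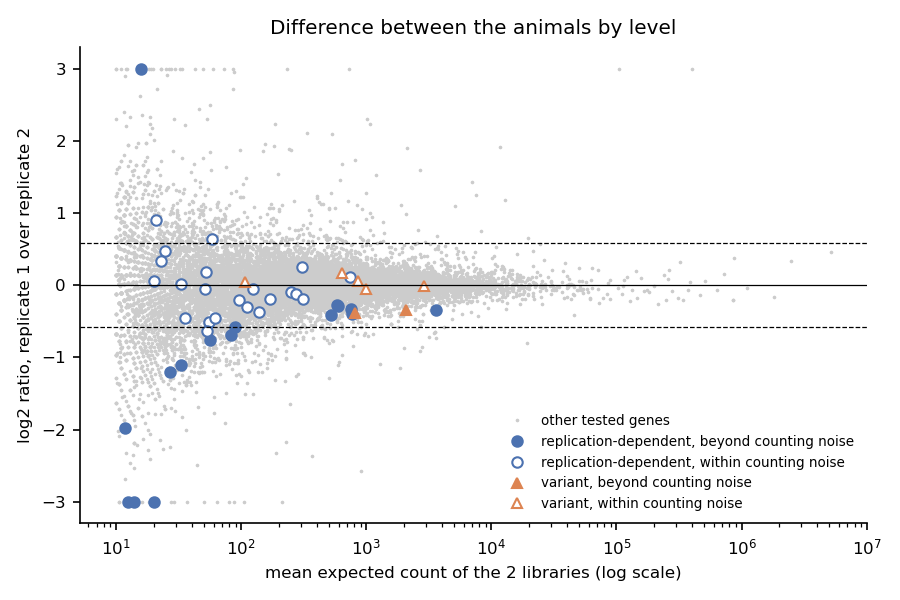
Log2 ratio of replicate 1 over replicate 2 against mean expected count on a log axis, for all other tested genes (grey), replication-dependent (circles) and variant (triangles) histone genes, filled where the binomial test was passed. Dashed lines mark 1.5-fold, values beyond 3 are drawn at 3, and 17 filled symbols lie below 0.

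Most tested replication-dependent genes were lower in replicate 1. Of 38, 28 had a ratio below 1 and 10 above 1, beside 7198 below 1 and 6897 above 1 among all 14095 tested genes. With the genes of 1 protein summed, the split was 10 below and 7 above 1, and by spike-ins it was 24 and 14. The median log2 ratio of the 38 genes was −0.30, against −0.01 for all 14095 tested genes. Genes at 0 in 1 library lie in the tails, so placing them at the bound that 3 counts give leaves this median at −0.30. Summed over all 67 genes the log2 ratio was −0.26, with a 95% Clopper-Pearson interval of −0.30 to −0.22 that covers counting error only. The 7 variant genes had a median of −0.01 and a summed log2 ratio of −0.11 (−0.16 to −0.07). Spike-in scaling shifted the median over every tested gene by 0.15, and with it the sums became −0.11 (−0.15 to −0.07) for replication-dependent and 0.04 (−0.01 to 0.08) for variant genes. Scaling by total counts shifted that median by −0.11, and the sums were −0.37 and −0.23.

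Markers of muscle fibres and of other cell types were set beside this difference, where 10.8% of all tested genes passed the exact binomial test as higher and 10.7% as lower in replicate 1. All 4 endothelial markers were lower in replicate 1, 2 of them past the exact binomial test, and they summed to 29.5 TPM in replicate 1 and 33.9 TPM in replicate 2. All 3 erythroid markers were lower in replicate 1, 2 of them past the test, with sums of 161 and 182 TPM. All 5 fibre markers passed the test, 1 as higher and 4 as lower in replicate 1. The 3 fibroblast markers, with 97.0 and 99.6 TPM, were split. The satellite cell markers summed to 1.34 and 1.05 TPM and the myeloid markers to 6.45 and 7.04 TPM. Of the lymphocyte markers, Cd3e and Cd79a had no count and Ms4a1 had 1 and 3 counts. Whether any of these cell types had a part in the histone difference was not tested.

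The 4 tested linker histone genes were lower in replicate 1 by similar ratios. Hist1h1c had 2988 counts in replicate 1 and 4193 in replicate 2, a log2 ratio of −0.34 (95% interval −0.41 to −0.27), with an adjusted p of 4.3e-21 in the exact binomial test. H1f0 had 1725 and 2429 counts, also −0.34 (−0.43 to −0.25, adjusted p = 1.1e-12 in the same exact test). Hist1h1e had 625 and 916 counts, −0.40 (−0.55 to −0.25, exact adjusted p = 1.3e-06). Hist1h1d had 66.7 and 111 counts, −0.57 (−1.04 to −0.13, exact adjusted p = 0.049), and was the only one of these at under 100 counts on average. By TMM scaling all 4 tested linker genes thus passed the test in the same direction, whether clustered or not, with Hist1h1d close to the threshold. Of all tested genes, 10.7% passed as lower in replicate 1. Hist1h1b, at 8 and 3 counts, and Hist1h1a, at 4 and 3 counts, were higher in replicate 1 but too low to be tested. Summed over Hist1h1c, Hist1h1e and H1f0 the log2 ratio was −0.35 by TMM, −0.46 by total counts and −0.20 by spike-ins.

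The H3.3 genes, which share a protein, differed from each other in this comparison. H3f3a had 2705 counts in replicate 1 and 3027 in replicate 2, a log2 ratio of −0.01 (−0.09 to 0.06, exact adjusted p = 0.89). H3f3b had 657 and 957 counts, −0.39 (−0.54 to −0.25, exact adjusted p = 1.3e-06). The intervals do not overlap, and the difference between the 2 genes was not tested. With spike-in scaling H3f3a turned to a log2 ratio of 0.14 and passed the test as higher, and with total counts it passed as lower, at −0.13. H3f3b was below 0 and past the threshold under both. H3f3b took 10.6% of H3 TPM in replicate 1 and 13.8% in replicate 2. The other variants had ratios near 1, with H2afz at 0.06 (−0.08 to 0.20), H2afv at 0.16 (0.00 to 0.32), H2afy at −0.05 (−0.18 to 0.07) and H2afx at 0.04 (−0.36 to 0.44) on the log2 scale, and none of the 4 passed the test. With spike-in scaling H2afz, at 0.21, and H2afv, at 0.31, passed as higher in replicate 1, and with total counts H2afy passed as lower, at −0.17.

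Among core genes of the clusters, the binomial test was passed by 6 of 11 tested H4 genes, 4 of 6 H2A, 2 of 10 H2B and 1 of 8 H3 genes. All of them were lower in replicate 1 except 1 H4 gene, Hist1h4n, which was higher. Of all tested genes, 10.7% passed as lower and 10.8% as higher. Hist1h4n, Hist2h2aa1, Hist1h2ao and Hist1h3b, all among these calls, had no count in 1 library. The 13 H4 genes summed to 2213 counts in replicate 1 and 2942 in replicate 2, a log2 ratio of −0.26 (−0.34 to −0.18), and to −0.11 (−0.19 to −0.03) by spike-ins. Hist1h4d, at 423 and 626 counts, had −0.41 (exact adjusted p = 6.4e-05). Hist1h4h, at 507 and 687 counts, had −0.29 (exact adjusted p = 0.0053), and Hist1h4c, at 498 and 670 counts, had −0.28 (exact adjusted p = 0.0081). Hist1h4h and Hist1h4c kept their direction but missed the threshold both under spike-in scaling and in the second quantification. Hist1h4i and Hist1h4m did not pass, with log2 ratios of −0.13 and −0.09.
For H2A the pair Hist2h2aa1 and Hist2h2aa2 summed to 629 and 917 counts and a log2 ratio of −0.39 (−0.54 to −0.25). Hist2h2ac, at 19.2 and 47.1 counts, had −1.11 (−2.01 to −0.36, exact adjusted p = 0.017). For H2B, Hist2h2bb, at 59.3 and 107 counts, had −0.69 (exact adjusted p = 0.015), and Hist1h2bc, at 739 and 755 counts, had 0.12 and did not pass. Spike-in scaling ended the calls of Hist2h2bb, Hist1h2bq and Hist2h2aa2, all still below 0, and took Hist1h2bc as higher, at 0.27. The second quantification also ended the call of Hist2h2bb, at −0.51 (exact adjusted p = 0.31). The replication-dependent H3 sum, 459 and 567 counts, gave −0.15 with an interval of −0.34 to 0.03.

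Several of the widest ratios belong to genes that share sequence. The median share of a gene's 31-base words found in no other gene was 41.5% for replication-dependent members and 91.1% for variants. Of 74 members, 34 had 50% or more of such words, and 40, all replication-dependent, had fewer. Of the 12 members 1.5-fold apart, 10 were among the 21 tested members under 50%, and 2, Hist1h4a and Hist1h2bh, among the 24 at 50% or more. All 12 also averaged under 100 counts, since 0 of the 22 members at 100 or more were 1.5-fold apart. The parts of low counts and of shared sequence were not tested. The binomial calls were spread differently, with 9 on each side of 50%. All 9 at 50% or more were lower in replicate 1, among them Hist1h1c, H1f0, H3f3b, Hist1h1e and Hist1h4d.

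**Figure D4:**
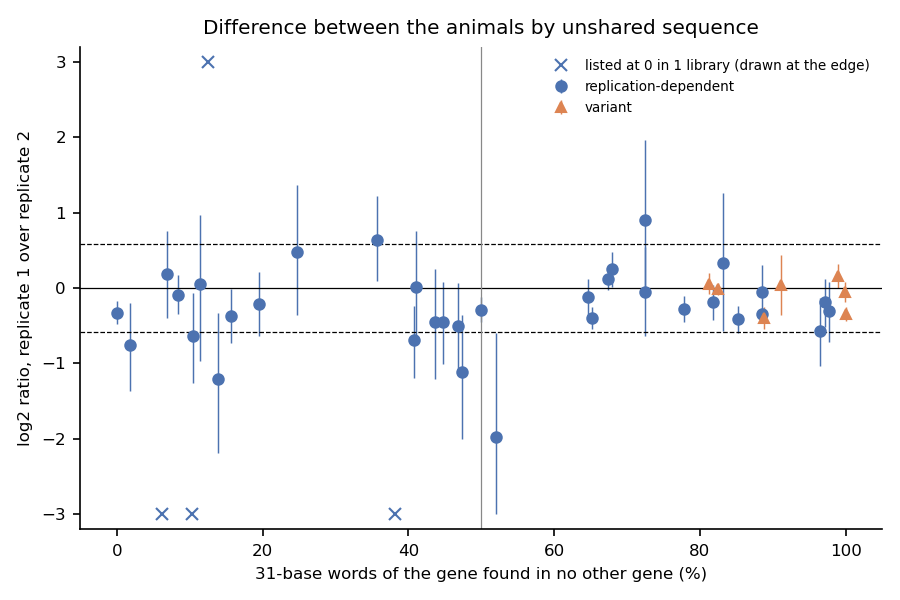
Log2 ratio of replicate 1 over replicate 2 of the 45 tested members against the percent of their 31-base words found in no other gene. Bars are 95% Clopper-Pearson intervals of the counts, cut at 3, crosses are genes with no count in 1 library, dashed lines mark 1.5-fold and the grey line marks 50%. 10 of the 12 genes beyond the dashed lines lie left of the grey line, and all 12 average under 100 counts.

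Some members had no count in 1 library only. Hist1h4n had 31.6 counts in replicate 1 and none in replicate 2, at least 11.7-fold higher in replicate 1 against a floor of 3 counts in that library. The second quantification gave it 27.4 and 6.92 counts, a log2 ratio of 1.99, so the size of that difference depends on the method. Its near copy Hist1h4m, with which it shares 85.3% of its words, had 228 and 269 counts, and the pair together had a log2 ratio of 0.10 (−0.16 to 0.35). Hist2h2aa1 had no count in replicate 1 and 40.3 in replicate 2, at least 12.1-fold lower in replicate 1, while the second quantification gave it 270 and 315 counts. Hist1h3b, likewise at 0 in replicate 1 and 24.9 in replicate 2, had 46.2 and 69.2 counts in the second quantification. Hist1h2ao, at 0 and 27.8 counts, shares 93.8% of its words with Hist1h2ap, which had 5.63 and 0 counts. The second quantification gave Hist1h2ao 0 and 5.18 counts. Hist1h2bq and Hist1h2br, which encode 1 protein and share nearly all words, each had 38.9 counts in replicate 1, and the deposited posterior SDs were 62.1% and 62.7% of those values.

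Both deposited quantifications were compared over the 48 members that averaged at least 10 counts in either. In 20 of them the mean counts differed by more than 1.5-fold, 17 of the 24 members under 50% unshared words and 3 of the 24 at 50% or more, namely Hist1h4c, Hist1h4d and Hist2h4. Hist1h1c differed by a factor of 1.05, H3f3a by 0.95 and H1f0 by 0.94, as first over second quantification. Hist1h4f differed by 3.76 and Hist1h2bk by 7.97. Summed counts differed by a factor of 1.11 for all replication-dependent genes, 0.93 for variants and 1.35 for H4. Sums over near copies could still differ more, at 3.26 for Hist1h2bq with Hist1h2br, 2.84 for Hist1h3h with Hist1h3i and 1.54 for Hist1h4m with Hist1h4n, against 1.00 for Hist2h2aa1 with Hist2h2aa2.

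**Figure D5:**
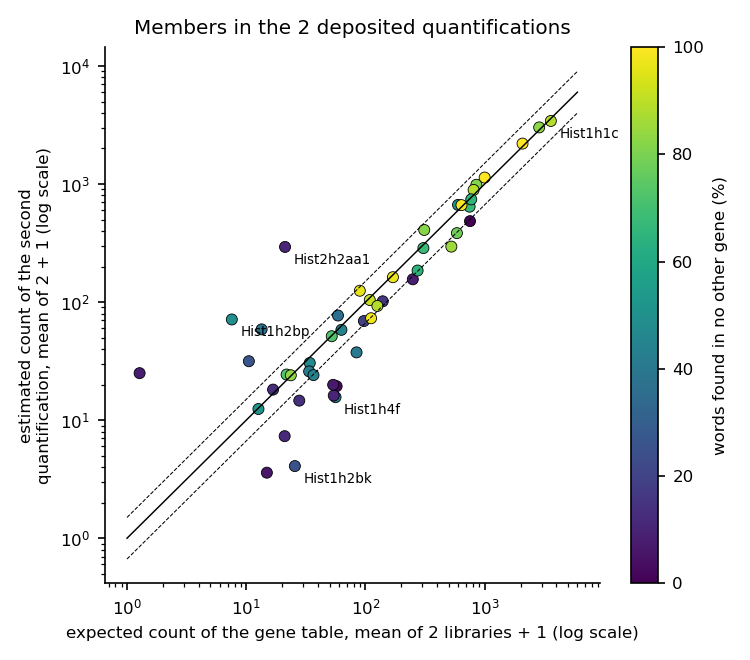
Mean count per member in the gene table (horizontal) and in the second quantification (vertical), both plus 1 on log axes, coloured by the percent of words found in no other gene. The solid line marks equality and dashed lines 1.5-fold, and 20 of the 48 members lie outside them.

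Genes that process histone mRNA and place or modify histones were compared in the same way, from lists chosen with earlier results known. Slbp held 2.51 and 2.57 TPM and was named for its role. Of 17 tested genes of histone mRNA 3' processing and transcription, 2 passed the exact binomial test, both higher in replicate 1, where 10.8% of all tested genes did. That count is near the background. The 2 genes were Sympk, the scaffold of the cleavage complex, with 35.9 and 30.6 TPM, and Upf1, a helicase needed for histone mRNA decay, with 13.5 and 11.6 TPM. No gene of this list, or of the 2 lists that follow, was 1.5-fold apart. Of 27 tested chaperones and exchangers, 2 passed as higher and 3 as lower in replicate 1, also near the 10.8% and 10.7% of all tested genes, among the lower ones Vps72, a subunit of complexes that deposit H2A.Z, with 30.2 and 35.4 TPM (log2 ratio −0.36). The most abundant was Nap1l4, an H2A-H2B chaperone, with 75.7 and 81.3 TPM. Of 28 writers of H3 and H4 marks, 6 passed as higher and 3 as lower, against the same 10.8% and 10.7%, with Kmt5a, the H4 lysine methyltransferase, most abundant at 89.8 and 99.4 TPM. Median log2 ratios of these 3 lists were −0.03, −0.04 and 0.08. No gene of the cell cycle list passed, and Mcm5, a replicative helicase subunit, was over 1.5-fold lower in replicate 1, at 12 and 24 counts, without passing.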

How the data were processed

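Total RNA of gastrocnemius was sequenced in 2 libraries, 1 per animal, in 1 group. Per the labels' protocols, a directional kit with ribosomal reduction and a spike-in mix was used. Per the file headers, the deposited tables hold expected counts, TPM, posterior SDs (in percent of the count here) and the percent of each transcript in its gene, under RSEM's column names, and a second transcript table under kallisto's. They use mm10 and GENCODE M21. Aligner, versions and strand setting are not given in the sources used here, so genes overlapping on opposite strands may share reads. The members and gene lists were chosen with earlier results of these data known.

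Expected counts were rounded for tests. Library sizes were scaled by TMM (edgeR 4.0.16, R 4.3.3), ratios used a prior of 1 count, and genes averaging at least 10 counts went into an exact conditional binomial test (scipy 1.17.1), adjusted over all 14095 such genes. Counts were simulated for those genes with counting error only, and 200 genes averaging at least 100 counts were changed 2-fold. The binomial test found 100% of the changed genes and 0.0648% of the rest, and the 1.5-fold rule 100% and 4.12%. Changed genes under 100 counts and reads shared between copies were not simulated. p-values measure only the spread between these libraries' reads. Words of 31 bases were compared over GENCODE M21 transcripts on the same strand. The naming rule took all members with a mean of 1 TPM or more or 1.5-fold apart, and all variants. From each other list it took up to 4 genes by TPM and 2 by ratio. Not every gene that meets this rule is printed. Some further members were named after their values were seen. Alternatives tried were scaling by total counts, by spike-ins and by DESeq2 1.42.0 size factors, other count and TPM minimums, another prior, the second quantification, and members with mostly unshared words. Spike-in amounts were taken as equal. Summing the genes of 1 protein was added after seeing the data.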

Additional observations from a re-analysis of the deposited data

How the results depend on the processing

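No paired analysis was possible because the study has 1 group with 1 library per animal. The count of members 1.5-fold apart, 12 as reported, was 0 with a minimum mean of 100 counts, 29 with no count filter, 2 among members with mostly unshared words, 7 at 2-fold and 4 with the genes of 1 protein summed. It stayed between 10 and 13 under the other settings. The 18 members beyond counting noise became 8 at 100 counts, 11 in the second quantification, 9 among members with mostly unshared words, 4 in edgeR's exact test with an assumed variation of 0.1 and 10 with genes of 1 protein summed. A higher minimum and the restriction to unshared words test fewer members by construction. The replication-dependent median of −0.30 was −0.41 by total counts, −0.15 by spike-ins, −0.19 with no count filter, −0.19 in the second quantification, −0.19 for mostly unshared words and −0.24 with proteins summed. It stayed below 0 in all of these. The variant median of −0.01 was −0.13 by total counts, 0.14 by spike-ins and −0.070 in the second quantification. Against the shift of all tested genes, −0.11 by total counts and 0.15 by spike-ins, these medians moved by about as much. Under spike-ins the log2 ratio of H3f3a reversed to 0.14. Of 43 tested members that met the naming rule, DESeq2 size factors changed no call. Spike-ins ended 5 and added 5 beside that reversal, total counts added 5, and the second quantification, with a test for 40 of them, ended 6 and added 1. The cause was not tested.

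Members at 1 TPM in both animals, 37, numbered 24 at 5 TPM, 38 at 0.5 TPM and 39 in the second quantification, and each animal alone gave 41 to 42. The replication-dependent share of 63.3% was 55.0% by expected counts and 51.0% over members with mostly unshared words, and 61.9% to 64.7% in each animal alone. The H2afy-202 share of 68.8% was 57.4% in the second quantification, and 65.8% to 71.9% in each animal alone. With 2 animals no SD here rests on more than 1 difference, members under 10 counts were not tested, and levels of near-identical copies rest on how each method divides shared reads.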

Other observations

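Symbols and genes outside the rule also held counts. Of the 3 symbols without a protein-coding transcript, Hist1h2al had 62.7 counts in replicate 1 and 84.4 in replicate 2, or 10.4 and 12.4 TPM, a level that only Hist2h2aa2 exceeded among replication-dependent H2A members. Hist3h2bb-ps had 5.79 and 8.13 counts, and Hist1h2aj had none. Of 13 other variant histone genes found in the annotation, 2 reached 1 TPM in both animals. H3f3c, an intronless relative of the H3.3 genes that shares words with H3f3a, held 5.76 and 4.67 TPM, and H2afj, which encodes the variant H2A.J, held 4.83 and 4.71 TPM. Cenpa, the centromeric H3, had 18.0 and 13.0 counts. The macroH2A2 gene H2afy2 held 0.15 TPM in both animals, and 8 of the 13 had no count. Gm8203, which shares 18.7% of the words of H2afz, held 23.5 and 23.6 TPM. The genes named in this paragraph were partly chosen after their values were seen.

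Beyond the members, 12 genes carried the stem-loop consensus. Among them Syncrip held 25.0 and 26.0 TPM, Rabgap1l 3.01 and 3.30 TPM and Klf7 2.89 and 3.23 TPM. Trim17, which holds 32.1% of the words of the overlapping member Hist3h2a, had 5.95 and 4.4 counts, against 316 and 295 for Hist3h2a.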
